A study of Mus musculus with 7 samples.

Results

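The genes described here are 9 members of the adenosine and cyclic AMP pathway of regulatory T cells (Tregs), taken by gene symbol from a table of 51138 genes. They are the ectonucleotidase genes Entpd1 and Nt5e, the adenosine deaminase gene Ada, the adenosine receptor gene Adora2a, the prostaglandin E2 receptor genes Ptger2 and Ptger4, and the phosphodiesterase genes Pde3b, Pde4b and Pde4d. All 9 had enough counts to be tested, with no fewer than 63 counts in any library. The samples were Tregs sorted from the spleens of C57/BL6 mice, described as RFP-FoxP3+ (a red fluorescent protein marking cells with FoxP3, the defining transcription factor of Tregs). The mice had been injected 72 h earlier with 20 ug of FP, the fusion protein IL-2/CD25 of the cytokine IL-2 and its receptor chain CD25 (4 samples), or with 100 uL of PBS (3 samples). Neither the age of the mice nor whether a sample came from 1 mouse or from several is given in the sources used here. The p-values therefore measure the spread between these samples, which may be partly technical. The comparison asks how Treg transcripts differ after the fusion protein.

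Tregs restrain other immune cells in part by making adenosine outside the cell. ATP and ADP released by stressed cells are cut to AMP by the surface enzyme CD39, the product of Entpd1, and AMP is cut to adenosine by CD73, the product of Nt5e. Adenosine acts through receptors of the Adora family and is removed by uptake through transporters, by phosphorylation or by deamination to inosine, the reaction of adenosine deaminase. The receptor encoded by Adora2a, and the prostaglandin E2 receptors EP2 and EP4 encoded by Ptger2 and Ptger4, couple to the stimulatory G protein and raise cyclic AMP through adenylyl cyclases. Cyclic AMP activates protein kinase A and the Epac exchange factors, and phosphodiesterases end the signal by hydrolysing it. Transcription factors of the CREB family, which protein kinase A activates, bind the cyclic AMP response element.

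Of the 9 members, 2 rose after FP (Entpd1 and Ada), 4 fell (Ptger2, Pde3b, Pde4b and Pde4d), and 3 did not pass the test (Nt5e, Adora2a and Ptger4). The rise of Entpd1 was called with TMM scaling but not with 2 other scalings. A gene passed when its p from edgeR's quasi-likelihood test, adjusted by Benjamini-Hochberg across all 15954 genes that could be tested, was under 0.05. Among all genes tested, 21.0% were higher and 18.5% were lower by the same rule. These shares are also the background for the counts of each list of pathway genes below. They were 15% and 30.2% with upper-quartile factors, and 12.7% and 31.6% with library size alone. The FP and PBS libraries did not overlap for the same 6 members that passed, whereas they did not overlap for 46.7% of all genes tested. The median log2 fold change of FP over PBS was -0.13 over the members and -0.05 over all genes tested.

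The promoters of Entpd1, Ada and Pde4b, genes that rose or fell, are shown because letters of 2 regulatory motifs occur in them. The motifs searched on both strands were TGACGTCA, the full cyclic AMP response element, its core TGACG, which is part of the full element, and TTCNNNGAA, the element bound by STAT proteins, which act downstream of the IL-2 receptor. The windows are the 250 bases before each RefSeq start site (build GRCm38.p6), written 5′ to 3′ on the strand of the gene, with the motif letters in capitals. RefSeq gave 11 windows for 7 members and none for Adora2a and Pde3b.
Entpd1, chr19:40612116-40612365, plus strand: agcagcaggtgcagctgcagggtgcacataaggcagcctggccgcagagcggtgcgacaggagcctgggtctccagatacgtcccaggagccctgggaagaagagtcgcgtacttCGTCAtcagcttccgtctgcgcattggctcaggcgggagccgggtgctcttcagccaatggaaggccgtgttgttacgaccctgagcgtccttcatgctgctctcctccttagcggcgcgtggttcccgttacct
Entpd1, chr19:40659520-40659769, plus strand: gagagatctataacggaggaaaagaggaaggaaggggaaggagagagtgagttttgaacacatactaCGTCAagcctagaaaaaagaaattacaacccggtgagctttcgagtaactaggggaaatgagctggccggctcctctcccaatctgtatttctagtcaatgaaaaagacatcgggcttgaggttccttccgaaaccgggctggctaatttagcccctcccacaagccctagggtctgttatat
Ada, chr2:163750240-163750489, minus strand: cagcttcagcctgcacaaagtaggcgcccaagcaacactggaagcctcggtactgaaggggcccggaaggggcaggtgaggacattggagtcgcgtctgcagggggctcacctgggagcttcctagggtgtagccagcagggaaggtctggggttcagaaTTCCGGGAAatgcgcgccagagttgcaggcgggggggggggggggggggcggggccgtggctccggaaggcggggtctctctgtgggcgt
Pde4b, chr4:102421305-102421554, plus strand: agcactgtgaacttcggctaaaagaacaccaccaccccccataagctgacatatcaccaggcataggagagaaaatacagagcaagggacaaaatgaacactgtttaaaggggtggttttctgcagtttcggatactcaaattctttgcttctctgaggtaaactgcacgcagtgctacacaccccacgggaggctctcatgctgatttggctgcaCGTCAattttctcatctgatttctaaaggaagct
Pde4b, chr4:102569810-102570059, plus strand: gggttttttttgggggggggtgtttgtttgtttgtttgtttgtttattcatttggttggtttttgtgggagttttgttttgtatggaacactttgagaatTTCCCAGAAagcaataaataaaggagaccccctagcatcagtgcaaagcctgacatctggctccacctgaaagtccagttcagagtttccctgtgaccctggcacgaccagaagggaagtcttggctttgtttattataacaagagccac
The full element was in no member's window, against 1.55% of all 32851 windows of the same length. The core was in 3 windows of 2 members, its first base at -135 and -183 from the 2 Entpd1 start sites and at -34 from 1 Pde4b start site. Of all windows 17.8% held the core. The STAT element began at -90 from the Ada start site and at -150 from the other Pde4b start site shown, and was in 7.02% of all windows. These matches describe letters only.

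Total counts ran from 11111554 to 13429878 in the FP libraries and from 9956509 to 12208512 in the PBS libraries. Levels are given as CPM, counts divided by a library total that was scaled with a trimmed-mean (TMM) factor, and 3 counts in a library, the limit that a count of 0 allows, came to between 0.214 and 0.322 CPM. Foxp3 averaged 540 ± 52.9 CPM in FP libraries and 491 ± 7.24 CPM in PBS libraries (SD, n = 4 and 3, adjusted p = 0.292 by edgeR). The 8 Treg markers summed to between 4917 and 5764 CPM in FP libraries and between 2915 and 3246 CPM in PBS libraries, with Ikzf2 and Il2ra the most abundant, so the labelled cell type had its markers in every library. The 8 T cell markers, led by Cd3e and Lck, summed to 3249 ± 379 CPM in FP and 2822 ± 228 CPM in PBS libraries.

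The libraries also held RNA of other cells. The 15 monocyte and macrophage markers, led by Vcam1 and Csf1r, summed to between 24.1 and 128 CPM in FP libraries and to 700, 1769 and 1247 CPM in PBS replicates 1 to 3. All 15 were lower after FP and none was at 0 throughout either group. The groups did not overlap, and the two-sided exact permutation test of the sum gave p = 0.0286, the smallest that 35 assignments allow, and 0.0686 after adjustment over 12 marker lists. Dendritic cell markers, led by Zbtb46 and Itgax, summed to 13.7 ± 1.75 CPM in FP and 31.3 ± 6.13 CPM in PBS libraries. Most of this was Zbtb46, at 11.2 CPM in FP and 20.0 CPM in PBS libraries. NK cell markers, led by Eomes and Klrb1c, summed to 1.23 ± 0.266 and 5.15 ± 1.001 CPM in FP and PBS libraries. Most of this was Eomes, at 0.878 and 3.88 CPM, and 3 of the 5 NK cell markers had no counts in any PBS library. B cell markers (Cd79b, Cr2) summed to 34.0 ± 4.30 CPM in FP and 43.5 ± 11.1 CPM in PBS libraries. Of these 9 markers, 1 was higher and 3 were lower by edgeR. Cd79b averaged 15.6 CPM in FP and 9.36 CPM in PBS libraries (adjusted p = 0.0278 by edgeR). Cr2 went the other way, at 4.78 CPM in FP and 9.51 CPM in PBS libraries (adjusted p = 0.0149). The 2 CD8 markers (Cd8b1, Cd8a) summed to 10.7 ± 2.10 CPM in FP and 9.32 ± 0.443 CPM in PBS libraries. The plasma cell list summed to 64.5 ± 7.12 CPM in FP and 32.8 ± 1.56 CPM in PBS libraries. Nearly all of it was Prdm1, which activated Tregs also express, and its next marker, Jchain, averaged 0.507 and 0.356 CPM in FP and PBS libraries. Stromal and endothelial markers summed to 188 ± 10.0 CPM in FP and 208 ± 10.1 CPM in PBS libraries. Nearly all of this was Pecam1, while Vwf averaged 0.178 CPM in FP and 2.87 CPM in PBS libraries (log2 fold change -3.96, adjusted p = 0.00152 by edgeR). Col1a1, named after its values were seen, averaged 1.66 CPM in FP and 0.460 CPM in PBS libraries (log2 fold change 1.84, adjusted p = 0.00739). Erythroid markers (Hbb-bs, Alas2) summed to 16.2 ± 7.66 CPM in FP and 22.7 ± 9.02 CPM in PBS libraries. Platelet markers (Itga2b, Gp9) summed to 3.60 ± 1.18 CPM in FP and 5.38 ± 0.645 CPM in PBS libraries, and neutrophil markers (Ngp, S100a9) to 1.60 ± 0.563 CPM in FP and 0.758 ± 0.176 CPM in PBS libraries. In RNA from sorted populations, fewer cells of a type and less RNA per cell cannot be told apart.

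**Figure D1:**
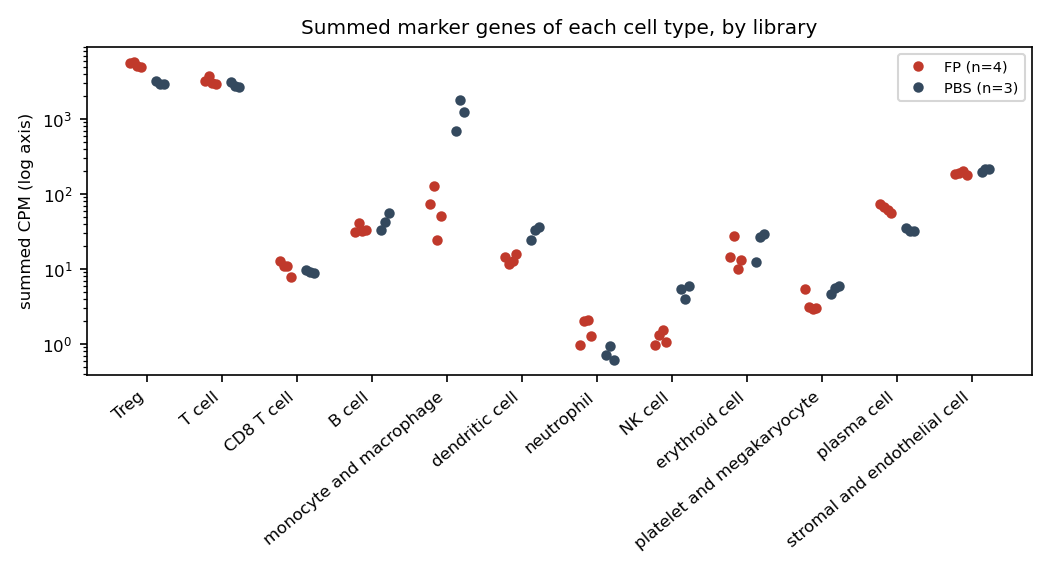
Summed CPM of each cell type's markers (log axis) in the 4 FP libraries and the 3 PBS libraries, 1 point per library. Monocyte and macrophage markers lie between 24.1 and 128 CPM in FP libraries and between 700 and 1769 CPM in PBS libraries, while the T cell marker sums overlap.

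With TMM scaling, transcripts of the surface enzyme that starts adenosine production rose after FP. Transcripts of the enzyme that completes it did not pass the test. Entpd1 (ENSMUSG00000048120.16, GRCm38 chromosome 19, 40612366 to 40741602, plus strand) had 80.1, 84.3, 81.4 and 75.0 CPM in FP libraries, against 58.1, 63.6 and 60.0 CPM in PBS libraries. Every FP library lay above every PBS library, and the spread within each group was small beside the gap. Its means were 80.2 ± 3.86 CPM in FP and 60.6 ± 2.76 CPM in PBS libraries (SD, n = 4 and 3), a log2 fold change of 0.40 (SE 0.09, 95% interval 0.22 to 0.59, adjusted p = 0.00414 by edgeR). This call rests on the scaling: the log2 fold change was 0.20 with upper-quartile factors (adjusted p = 0.0648) and 0.13 when only library size was used (adjusted p = 0.315). The median over all genes moved to -0.25 and -0.31 under those scalings, and Entpd1 lay above it under each.

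Nt5e (ENSMUSG00000032420.8, chromosome 9, 88327197 to 88372092, plus strand), the gene of the enzyme that makes adenosine from AMP, had 271, 289, 246 and 222 CPM in FP libraries, against 303, 261 and 281 CPM in PBS libraries. The groups overlapped, since FP replicates 1 and 2 reached the PBS range. The log2 fold change was -0.13 (95% interval -0.37 to 0.11, adjusted p = 0.350 by edgeR), so a change of the size seen for Entpd1 in the upward direction lay outside the interval. Nt5e was lower after FP in both of those scalings, at -0.34 with upper-quartile factors (adjusted p = 0.00913) and at -0.41 by library size (adjusted p = 0.00606). The count of Entpd1 over that of Nt5e within a library, which needs no scaling, was 0.296, 0.291, 0.331 and 0.338 in FP libraries and 0.192, 0.243 and 0.214 in PBS libraries. The ratio was higher in every FP library than in every PBS library, and its mean was 1.45 times the PBS mean. This ratio and those below are between pairs chosen after their values were seen and are descriptions with no test.

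**Figure D2:**
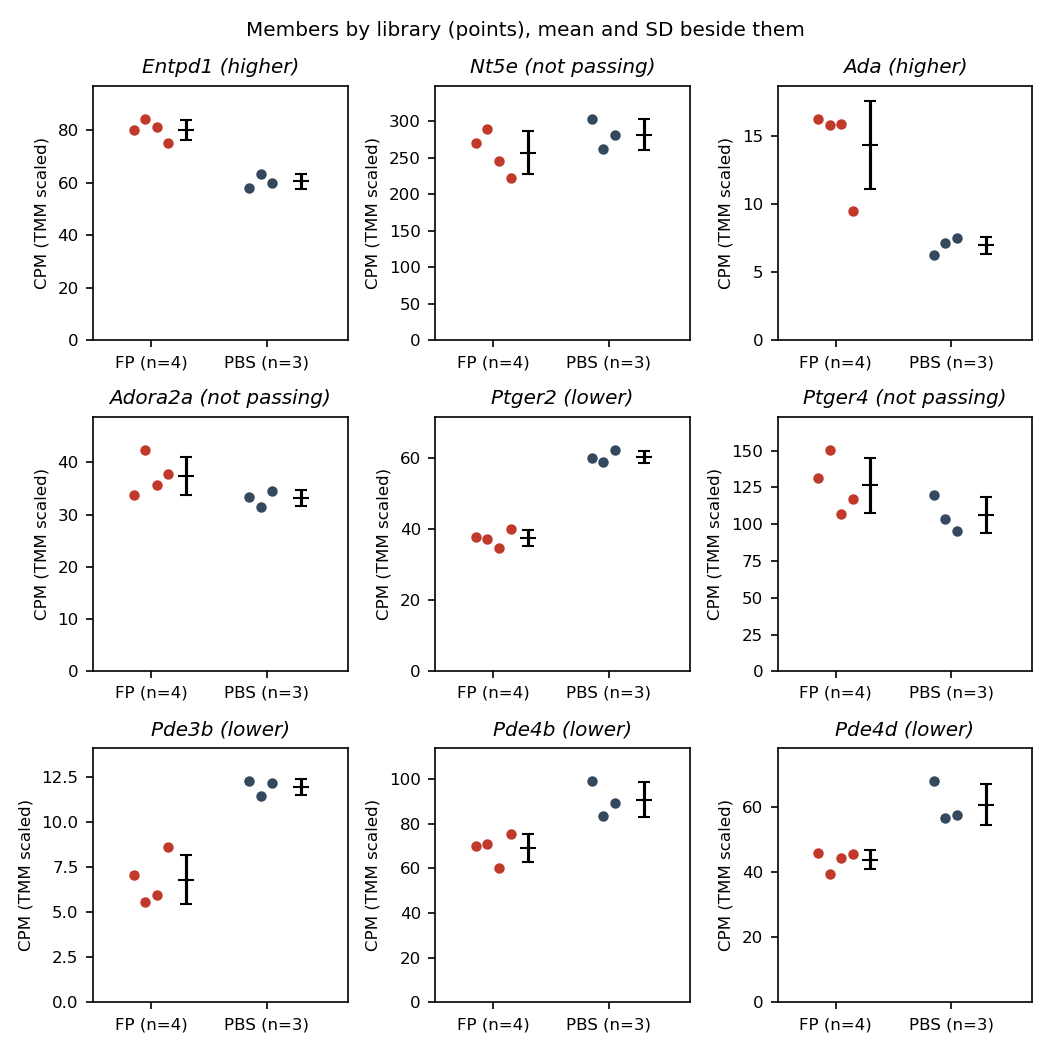
CPM of each of the 9 members in the 4 FP and the 3 PBS libraries, 1 point per library, with the group mean and SD; each panel has its own axis from 0. Entpd1 and Ada are higher and Ptger2, Pde3b, Pde4b and Pde4d lower in all FP libraries than in all PBS libraries, while Nt5e, Adora2a and Ptger4 overlap.

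The other 4 tested genes for extracellular nucleotide hydrolysis held 1 that rose and 1 that fell. Enpp1, which cuts ATP to AMP and pyrophosphate, averaged 44.0 ± 3.93 CPM in FP and 26.7 ± 1.81 CPM in PBS libraries, a log2 fold change of 0.72 (adjusted p = 0.000774 by edgeR). Cd38, which degrades NAD and is one start of another route to adenosine, averaged 18.7 ± 2.93 CPM in FP and 30.6 ± 6.28 CPM in PBS libraries, a log2 fold change of -0.71 (adjusted p = 0.00837). Without PBS replicate 2 its adjusted p was 0.0520. Acpp, an acid phosphatase able to act on AMP, averaged 7.08 and 9.93 CPM in FP and PBS libraries and did not pass (adjusted p = 0.124), but was lower without FP replicate 4 (adjusted p = 0.0261). With Entpd1 and Nt5e, 2 of the 6 tested genes were higher, 1 was lower and 3 did not pass, and the median log2 fold change was -0.05, the same as over all genes. Under upper-quartile scaling, and likewise by library size, 1 was higher and 3 were lower.

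Of 7 tested genes for nucleotide release and P2 receptors, 2 were higher, 3 lower and 2 did not pass (median log2 fold change -0.59). P2rx4, an ATP-gated channel, had 27.2, 30.9, 28.9 and 29.7 CPM in FP libraries and 41.7, 55.9 and 56.9 CPM in PBS libraries (log2 fold change -0.82, adjusted p = 0.000687 by edgeR). P2rx7, an ATP-gated channel of T cells, averaged 226 ± 20.1 CPM in FP and 188 ± 16.8 CPM in PBS libraries and did not pass (adjusted p = 0.0588). It was higher in other fits, among them the DESeq2 test (adjusted p = 0.0339) and edgeR without FP replicate 4 (adjusted p = 0.0186). The ADP receptor genes P2ry12 and P2ry13 fell. P2ry13 had 1.72, 2.84, 0.549 and 0.571 CPM in FP libraries and 10.8, 27.3 and 16.6 CPM in PBS libraries, and P2ry12 averaged 0.156 CPM in FP and 3.48 CPM in PBS libraries, with no more than 3 counts in an FP library. Both were lowest in PBS replicate 1 and highest in PBS replicate 2, as was the macrophage marker sum, and the part of other cells in these falls was not tested. The 2 genes that rose were Panx1, a release channel, and P2ry10, which is in this list for its symbol alone. Both were named after their values were seen, and without PBS replicate 3 their adjusted p by edgeR were 0.0560 and 0.0515. With library size alone the log2 fold change of Panx1 was 0.22 (adjusted p = 0.112), against 0.50 with TMM factors, and 1 gene of the list was higher and 4 were lower.

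The gene of the enzyme that removes adenosine rose by the largest factor of the 9 members. Ada (ENSMUSG00000017697.3, chromosome 2, 163726584 to 163750239, minus strand) had 16.2, 15.8, 15.8 and 9.48 CPM in FP libraries, against 6.27, 7.11 and 7.53 CPM in PBS libraries. FP replicate 4 lay apart from the other FP libraries but above every PBS library. The means were 14.3 ± 3.24 CPM in FP and 6.97 ± 0.641 CPM in PBS libraries, a log2 fold change of 1.03 or 2.05-fold (SE 0.21, 95% interval 0.56 to 1.50, adjusted p = 0.00348 by edgeR). The same library was lowest among the FP libraries for the proliferation marker Mki67, a gene chosen after its values were seen, with 817 CPM against 1363 to 1553 CPM in the other FP libraries and 41.1 to 62.3 CPM in PBS libraries. Its part in the Ada values was not tested. Relative to Nt5e in the same library, the Ada count was 0.0600, 0.0547, 0.0644 and 0.0427 in FP libraries and 0.0207, 0.0272 and 0.0268 in PBS libraries, a mean 2.22 times the PBS mean.

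Of the 14 tested genes for adenosine transport and removal, Ada included, 5 were higher, 4 lower and 5 did not pass (median log2 fold change 0.21). Ahcy, whose enzyme releases adenosine from S-adenosylhomocysteine inside the cell, had 50.2, 56.9, 41.9 and 31.9 CPM in FP libraries and 16.2, 13.6 and 11.4 CPM in PBS libraries (log2 fold change 1.72, adjusted p = 0.000188 by edgeR). It rose more than Ada did in the same fit, though the 2 were not tested against each other. Dpp4, the surface protein to which adenosine deaminase docks in humans, averaged 149 ± 11.7 CPM in FP and 113 ± 5.22 CPM in PBS libraries (log2 fold change 0.39, adjusted p = 0.00592), a call lost under upper-quartile scaling (adjusted p = 0.0627) and with library size alone, where it was 0.301. Slc29a3, an equilibrative nucleoside transporter of intracellular membranes, averaged 31.0 CPM in FP and 45.7 CPM in PBS libraries (log2 fold change -0.56, adjusted p = 0.00114). Nt5c3, a cytosolic nucleotidase, averaged 45.2 and 37.6 CPM in FP and PBS libraries and did not pass. Nt5c3 was higher without FP replicate 4 (adjusted p = 0.0464). With library size alone the median of this list was -0.06, and there as under upper-quartile scaling 3 were higher and 6 lower. With single libraries left out, from 4 to 7 were higher and from 1 (without PBS replicate 2) to 4 were lower.

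Adora2a was the only adenosine receptor gene with enough counts to test, and it did not pass. Adora2a (ENSMUSG00000020178.6, chromosome 10, 75316877 to 75334784, plus strand) had 33.9, 42.4, 35.6 and 37.8 CPM in FP libraries, against 33.3, 31.5 and 34.6 CPM in PBS libraries. FP replicate 1 lay within the PBS range and the other FP libraries lay above it. The log2 fold change was 0.18 (SE 0.11, 95% interval -0.07 to 0.42, adjusted p = 0.230 by edgeR), and its sign turned under upper-quartile scaling (-0.03) and library size alone (-0.09). Adora1, Adora2b and Adora3 averaged at most 0.19 CPM in FP and at most 0.42 CPM in PBS libraries.

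Of the 2 prostaglandin E2 receptors that raise cyclic AMP, Ptger2 fell and Ptger4 did not pass. Ptger2 (ENSMUSG00000037759.5, chromosome 14, 44988195 to 45003820, plus strand) had 37.7, 37.2, 34.8 and 40.2 CPM in FP libraries, against 60.2, 58.9 and 62.3 CPM in PBS libraries. The groups were far apart beside the spread within each. Its log2 fold change was -0.69 (SE 0.09, 95% interval -0.89 to -0.49, adjusted p = 0.000291 by edgeR), the smallest adjusted p among the members. PBS replicates 1 to 3, whose macrophage marker sums were 700, 1769 and 1247 CPM, had nearly equal Ptger2 levels. The part of other cells in the Ptger2 fall was not tested. Ptger2 shares 246 of its 5193 exon bases with the antisense gene Gm17173. The strand setting of the counting is not given in the sources used here, so reads within those shared bases cannot be told apart. Gm17173 also fell, with 24.4 ± 7.67 CPM in FP and 52.2 ± 8.37 CPM in PBS libraries (log2 fold change -1.09, adjusted p = 0.00367).

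Ptger4 (ENSMUSG00000039942.15, chromosome 15, 5206661 to 5244187, minus strand) had 131, 150, 107 and 117 CPM in FP libraries, against 120, 104 and 95.5 CPM in PBS libraries. The groups overlapped, and the log2 fold change was 0.25 (SE 0.13, 95% interval -0.03 to 0.53, adjusted p = 0.142 by edgeR). Its sign turned with library size alone (-0.03). Its exons share 82 bases with Ttc33 on the opposite strand and 1015 bases with the pseudogene Gm15937, which had 47 counts in all. The Ptger4 count over the Ptger2 count in the same library was 3.48, 4.04, 3.06 and 2.92 in FP libraries and 1.99, 1.76 and 1.53 in PBS libraries. The ratio was higher in every FP library, with a mean 1.92 times the PBS mean.

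**Figure D3:**
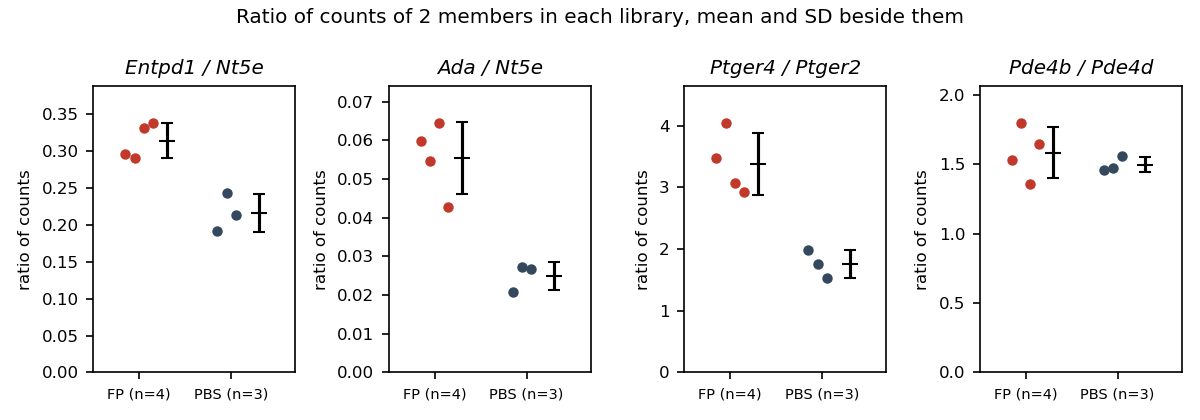
Ratio of the counts of 2 members in the same library, for pairs chosen after their values were seen, in the 4 FP and the 3 PBS libraries, with the group mean and SD. Entpd1 over Nt5e, Ada over Nt5e and Ptger4 over Ptger2 lie higher in all FP libraries, while Pde4b over Pde4d overlaps.

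Of the 6 tested prostanoid receptor genes, 1 was higher, 2 were lower and 3 did not pass (median log2 fold change -0.04). Ptgir, the Gs-coupled prostacyclin receptor, had 12.8, 18.2, 13.6 and 15.8 CPM in FP libraries and 10.2, 7.26 and 7.27 CPM in PBS libraries (log2 fold change 0.88, adjusted p = 0.00441 by edgeR). Ptger3, a prostaglandin E2 receptor that lowers cyclic AMP, averaged 0.821 ± 0.363 CPM in FP and 2.36 ± 0.154 CPM in PBS libraries (log2 fold change -1.54, adjusted p = 0.00718). Tbxa2r, the thromboxane receptor, averaged 25.8 and 23.0 CPM in FP and PBS libraries and did not pass.

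For the making and removal of prostaglandins, 4 of 8 tested genes were lower, 2 were higher and 2 did not pass (median log2 fold change -1.55). With library size alone none was higher and 5 were lower, and upper-quartile scaling gave 1 higher and 5 lower. Hpgds, the hematopoietic prostaglandin D synthase, averaged 7.79 ± 0.767 CPM in FP and 33.7 ± 8.65 CPM in PBS libraries (log2 fold change -2.11, adjusted p = 2.41e-05 by edgeR). Hpgd, which inactivates prostaglandin E2, had 0.645, 1.33, 0.183 and 0.784 CPM in FP libraries and 11.04, 31.7 and 22.1 CPM in PBS libraries. Pla2g4a, which frees arachidonic acid, averaged 0.591 and 7.29 CPM in FP and PBS libraries. These 3 genes also followed the order of the macrophage sum in the PBS libraries (lowest in replicate 1, highest in replicate 2), and the part of other cells was not tested. Ptges2, a prostaglandin E synthase, averaged 9.06 and 8.82 CPM in FP and PBS libraries and did not pass.

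All 8 tested genes of other Gs-coupled receptors in lymphocytes had log2 fold changes below 0, and 4 of them fell (median -0.59). The count of lower genes was 7 under upper-quartile scaling and 7 by library size, where 30.2% and 31.6% of all genes were lower, against 18.5% with TMM factors. None was higher, at an unadjusted p under 0.05 or with DESeq2 or limma-voom either. Vipr1, a receptor of vasoactive intestinal peptide, had 4.94, 5.33, 5.95 and 6.99 CPM in FP libraries and 16.3, 18.7 and 16.4 CPM in PBS libraries (log2 fold change -1.55, adjusted p = 7.52e-05 by edgeR). Adrb1 averaged 0.268 CPM in FP libraries and had 2.30, 7.11 and 4.99 CPM in PBS replicates 1 to 3, again in the order of the macrophage sum. The part of other cells in the Adrb1 fall was not tested. Gpr65, a proton-sensing receptor, averaged 26.8 and 36.0 CPM in FP and PBS libraries and did not pass (adjusted p = 0.118). It was lower under upper-quartile scaling (adjusted p = 0.0182), by library size (adjusted p = 0.00610) and without FP replicate 1 (adjusted p = 0.0177).

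The 3 phosphodiesterase members, which end the cyclic AMP signal, all fell. Pde3b (ENSMUSG00000030671.9, chromosome 7, 114415281 to 114539251, plus strand), known as a gene repressed by Foxp3 in mouse Tregs, had 7.09, 5.59, 5.95 and 8.63 CPM in FP libraries, against 12.3, 11.4 and 12.2 CPM in PBS libraries. The PBS libraries lay close together and all FP libraries lay below them. Its log2 fold change was -0.80 (SE 0.18, 95% interval -1.21 to -0.40, adjusted p = 0.00593 by edgeR), the largest fall among the members.

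Pde4b (ENSMUSG00000028525.16, chromosome 4, 102087543 to 102607259, plus strand), an enzyme of the PDE4 family found in immune cells, had 70.2, 70.8, 60.2 and 75.2 CPM in FP libraries, against 99.1, 83.6 and 89.5 CPM in PBS libraries. All FP libraries lay below the PBS libraries, of which replicate 1 was the highest. Its log2 fold change was -0.39 (SE 0.10, 95% interval -0.62 to -0.17, adjusted p = 0.0118 by edgeR), and without PBS replicate 1 it was -0.30 (adjusted p = 0.0700). Pde4d (ENSMUSG00000021699.17, chromosome 13, 108449948 to 109953461, plus strand), an enzyme of the same family, had 45.8, 39.4, 44.2 and 45.6 CPM in FP libraries, against 67.8, 56.7 and 57.5 CPM in PBS libraries. All FP libraries lay below the PBS libraries here too, and the log2 fold change was -0.47 (SE 0.10, 95% interval -0.70 to -0.24, adjusted p = 0.00515). Pde4b and Pde4d were highest in the PBS replicate with the lowest macrophage sum, and the part of other cells in their falls was not tested. The Pde4b count over the Pde4d count was 1.58 ± 0.184 in FP and 1.50 ± 0.0522 in PBS libraries and overlapped between the groups.

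**Figure D4:**
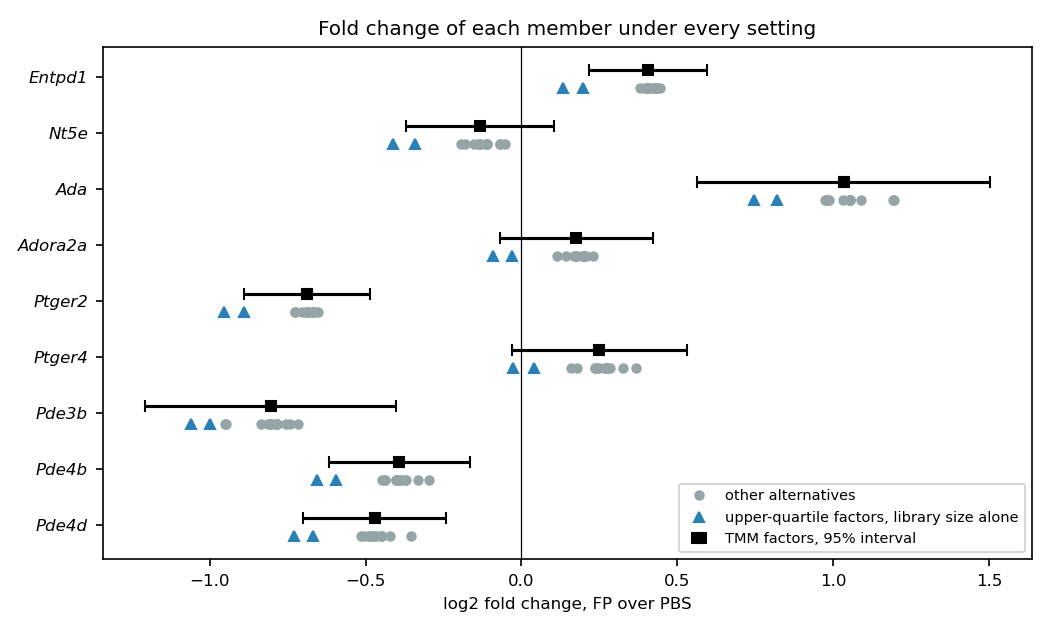
Log2 fold change of FP over PBS for each of the 9 members from edgeR's quasi-likelihood fit with TMM factors and its 95% interval (square and bar), and under the alternatives (triangles for the 2 other scalings, grey points for the rest). With TMM factors the intervals of Nt5e, Adora2a and Ptger4 cross 0, and Pde3b, Ptger2, Pde4d and Pde4b lie below it.

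Including the members, 7 of 11 tested cyclic AMP phosphodiesterase genes were lower after FP, none was higher and 4 did not pass (median log2 fold change -0.47). Among all genes tested, 18.5% were lower and 21.0% were higher. Without the members, 4 of 8 were lower, none was higher, and the median was -0.51. The count of higher genes was also 0 at an unadjusted p under 0.05, with DESeq2 and with limma-voom. With single libraries left out, between 5 and 7 of the 11 were lower. Pde7a, a cyclic AMP phosphodiesterase abundant in T cells, had 46.3, 42.4, 43.8 and 53.6 CPM in FP libraries and 75.2, 77.6 and 82.1 CPM in PBS libraries (log2 fold change -0.75, adjusted p = 0.000353 by edgeR). Pde8b averaged 2.74 ± 1.01 CPM in FP and 7.46 ± 1.79 CPM in PBS libraries (log2 fold change -1.42, adjusted p = 0.00404). Pde7b averaged 0.442 and 1.26 CPM in FP and PBS libraries (adjusted p = 0.0329), near the limit of counting, and its call was lost without FP replicate 1 or 2 or any 1 PBS library (adjusted p from 0.0539 to 0.102). Pde8a, with 21.1 ± 1.98 CPM in FP and 21.1 ± 1.97 CPM in PBS libraries, did not pass (log2 fold change 0.00).

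**Figure D5:**
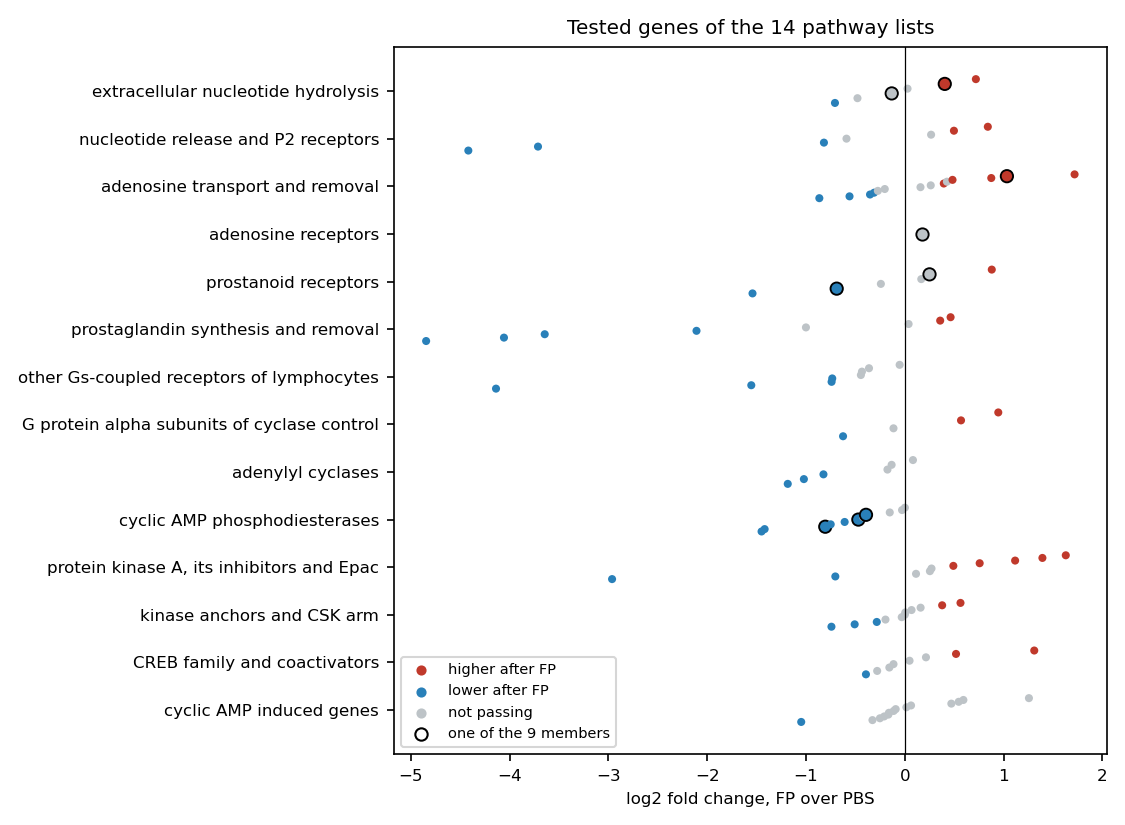
Log2 fold change of FP over PBS of each tested gene in the pathway lists, 1 row per list, coloured by call, with the members outlined. All 8 points of the other Gs-coupled receptors lie below 0, as do 10 of the 11 phosphodiesterase genes with TMM factors.

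Between the receptors and the kinase, the inhibitory G protein genes Gnai2 and Gnai3 rose. Gnai2, which restrains adenylyl cyclase, averaged 672 ± 104 CPM in FP and 349 ± 44.1 CPM in PBS libraries (log2 fold change 0.95, adjusted p = 0.00053 by edgeR), and Gnai3 had a log2 fold change of 0.57 (adjusted p = 0.00733, and 0.0511 with library size alone). Gnal, a stimulatory subunit, fell by 0.62 on the log2 scale (adjusted p = 0.025), a call lost without FP replicate 1 or 2 or any 1 PBS library (adjusted p from 0.0602 to 0.0852). Gnas, the main stimulatory subunit, averaged 22.4 and 24.3 CPM in FP and PBS libraries and did not pass, but was lower under upper-quartile scaling (adjusted p = 0.0407) and by library size (adjusted p = 0.0354). Of 6 tested adenylyl cyclase genes, 3 were lower and 3 did not pass (median log2 fold change -0.50), and none was higher, also at an unadjusted p under 0.05 and with DESeq2 and limma-voom. Adcy6 had 12.3, 12.6, 15.6 and 11.6 CPM in FP libraries and 24.4, 27.2 and 27.5 CPM in PBS libraries (log2 fold change -1.02, adjusted p = 0.000331), and Adcy5 and Adcy9 fell by 1.18 and 0.82 on that scale. The Adcy9 call was lost without FP replicate 1 or 2 or any 1 PBS library (adjusted p from 0.0664 to 0.149). Adcy7, the most abundant cyclase here, averaged 239 ± 50.4 CPM in FP and 270 ± 28.3 CPM in PBS libraries and did not pass.

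All 4 regulatory subunits of protein kinase A rose, and neither tested catalytic subunit passed. Prkar1a had 437, 518, 403 and 402 CPM in FP libraries and 292, 252 and 236 CPM in PBS libraries (log2 fold change 0.76, adjusted p = 0.000815 by edgeR). Prkar1b averaged 7.74 ± 2.00 CPM in FP and 2.47 ± 0.476 CPM in PBS libraries (log2 fold change 1.63, adjusted p = 0.00128). Prkar2a and Prkar2b, named after their values were seen, had log2 fold changes of 0.49 (adjusted p = 0.00679) and 1.12 (adjusted p = 0.00187), and the Prkar2a call was lost under upper-quartile scaling (adjusted p = 0.0583) and with library size alone, where it was 0.172. The catalytic subunit gene Prkacb averaged 209 ± 11.7 CPM in FP and 194 ± 22.7 CPM in PBS libraries. Pkib, an inhibitor of the kinase, averaged 0.198 CPM in FP and 1.61 CPM in PBS libraries and was lower (adjusted p = 0.000609). With the Epac genes, 5 of 10 tested genes were higher, 2 lower and 3 did not pass (median log2 fold change 0.38).

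Of 11 kinase anchors and members of the CSK arm, through which the kinase restrains T cell receptor signalling, 2 were higher, 3 were lower and 6 did not pass. Ezr, which links the anchor to the membrane skeleton, averaged 373 ± 66.1 CPM in FP and 252 ± 19.7 CPM in PBS libraries (log2 fold change 0.56, adjusted p = 0.00906 by edgeR, and 0.0658 with library size alone). Akap8, a nuclear anchor, fell by 0.51 (adjusted p = 0.00226) and Akap9 by 0.28 (adjusted p = 0.0125), the second of which was lost without PBS replicate 2 (adjusted p = 0.0592) or PBS replicate 3 (adjusted p = 0.0673). Akap13 was the most abundant gene that did not pass, at a log2 fold change of 0.16, and was higher in the DESeq2 test (adjusted p = 0.0382). With library size alone none of the 11 was higher and 4 were lower, and upper-quartile scaling gave 1 higher and 4 lower. Without PBS replicate 3, 1 was higher and 1 was lower, and without PBS replicate 2, 2 were higher and 1 was lower.

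Among 8 CREB family and coactivator genes, 2 were higher, 1 was lower and 5 did not pass. Upper-quartile scaling gave 2 higher and 4 lower, and library size alone 1 higher and 4 lower. Crem, which encodes activators and the cyclic AMP inducible repressor, had 49.4, 41.5, 31.0 and 27.0 CPM in FP libraries and 19.0, 13.6 and 12.3 CPM in PBS libraries (log2 fold change 1.31, adjusted p = 0.00168 by edgeR). Every FP library was above every PBS library, and the FP libraries spread widely. Atf1 had a log2 fold change of 0.52 (adjusted p = 0.00303, and 0.0597 with library size alone). Crtc1 fell by 0.39 (adjusted p = 0.0492), a call lost without any 1 library other than FP replicate 4 (adjusted p from 0.0519 to 0.247). Crebbp, a coactivator, did not pass (adjusted p = 0.186), but was lower under upper-quartile scaling (adjusted p = 0.00719) and by library size (adjusted p = 0.0145).

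Of 14 tested genes known to be induced by cyclic AMP, 1 was lower, none was higher and 13 did not pass (median log2 fold change -0.10). At an unadjusted p under 0.05, 1 was higher, as it was with DESeq2 but not with limma-voom. The count of lower genes was 3 under upper-quartile scaling, 5 by library size and 0 with DESeq2 size factors. Rgs2, a regulator of G protein signalling, had 42.7, 34.0, 12.8 and 19.3 CPM in FP libraries and 54.9, 56.5 and 56.4 CPM in PBS libraries (log2 fold change -1.05, adjusted p = 0.0478 by edgeR), a call lost without FP replicate 2 or 4 or any 1 PBS library (adjusted p from 0.0684 to 0.116). Junb averaged 277 ± 100.2 CPM in FP and 299 ± 114 CPM in PBS libraries, and the difference was not detectable at this spread. Fos and Fosb, named after their values were seen, had more counts in FP replicates 1 and 2 (Fos 196 and 237 CPM) than in FP replicates 3 and 4 (103 and 96.6 CPM), and PBS libraries had 148, 67.1 and 99.2 CPM of Fos.

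Over all 14 lists together, 23 of 114 tested genes were higher (20.2%), 36 were lower (31.6%) and 55 did not pass, against 21.0% higher and 18.5% lower among all genes tested. Without the members, 21 of 105 were higher and 32 were lower. These counts rest on the scaling and on single PBS libraries. Upper-quartile scaling gave 17 higher and 53 lower (46.5%, against 30.2% lower among all genes), and library size alone 12 higher and 56 lower (49.1%, against 31.6% among all genes). Without PBS replicate 2, 25 of 115 were lower (21.7%, against 11.6% among all genes), and without PBS replicate 3, 25 of 114 (21.9%, against 11%). With TMM factors the lower genes included P2ry12, P2ry13, Hpgds, Hpgd, Pla2g4a and Adrb1, which followed the order of the macrophage sum in the PBS libraries. Pde4b and Pde4d, also lower, were highest in the PBS replicate with the lowest macrophage sum. The part of other cells in the count of lower genes was not tested.

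Levels were compared between members as CPM per kilobase of exon. In FP libraries Nt5e was highest at 29.9 ± 3.40, followed by Ptger4 at 19.0 ± 2.84, Entpd1 at 14.4 ± 0.692 and Adora2a at 12.2 ± 1.20 CPM per kilobase. Ptger2 (7.22), Ada (7.16) and Pde4b (6.54) had overlapping ranges, as did Entpd1 and Adora2a, and Pde4d (3.65) and Pde3b (0.748) were lowest. In PBS libraries the order was Nt5e at 32.7 ± 2.41, Ptger4 at 15.98 ± 1.85, Ptger2 at 11.6, Entpd1 at 10.9, Adora2a at 10.8, Pde4b at 8.59, Pde4d at 5.05, Ada at 3.48 and Pde3b at 1.31 CPM per kilobase. The ranges of Ptger2, Entpd1 and Adora2a overlapped with their neighbours, and the others were apart. Nt5e and Ptger4 thus held the top places and Pde3b the last in both groups, and Ada stood above Pde4d in every FP library and below it in every PBS library. Nt5e lay above 89.9% of all tested genes in FP and above 93.4% in PBS libraries on this scale.

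For each member that passed, genes whose log2 CPM was nearest after centring over the 7 libraries were named. The distance is the root mean square difference. They were Smarca4 (0.0352) and Etv6 (0.0367) for Entpd1, Alg8 (0.0969) for Ada, Trps1 (0.0617) and Prrg1 (0.0741) for Pde3b, Kdm7a (0.0324) and Ercc5 (0.0461) for Pde4b, Nrg4 (0.0393) and Fan1 (0.0538) for Pde4d, and Ralgps2 (0.0462) and Inpp5f (0.0464) for Ptger2.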

How the data were processed

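RNA of sorted splenic Tregs was isolated with TRIzol and column purified, and libraries were made from 25 ng of total RNA with a ribosomal RNA removal kit and sequenced on an Illumina NextSeq, per the labels' protocols. The authors mapped reads to GRCm38 with STAR (2.5.0b per the submitters' processing notes) and deposited raw counts per GENCODE M13 gene from featureCounts 1.5.0, and they called genes with DESeq2, per the series' design text. The strand setting and the handling of reads with several matches are not given in the sources used here.

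Symbols were found for 50376 of 51138 gene identifiers, and 762 without one held at most 0.144% of a library's counts. The count of each gene was compared between 4 FP and 3 PBS libraries with edgeR 4.0.16 in R 4.3.3 (filterByExpr, TMM factors, robust quasi-likelihood F test, Benjamini-Hochberg adjustment over 15954 genes, threshold 0.05). Standard errors of log2 fold changes came from the F statistic. Coordinates, exon lengths and overlaps came from a GENCODE annotation of GRCm38 newer than M13. Marker sums were compared with an exact permutation test. No molecular identifiers are described, so PCR copies count separately and floors cover counting error only. The fit was tested on simulated data of the same FP and PBS design with 15954 genes. It called 42 of 43 genes raised 2-fold, 32 of 44 lowered to 0.5 of their level, and 7 of 15754 unchanged genes. In those data 15754 of the 15954 genes were unchanged, whereas 39.5% of the genes tested in the real libraries were called. How the fit does when that many genes differ was not tested, and neither was the choice of scaling. Alternatives were DESeq2 size factors, upper-quartile factors, library size alone, DESeq2 1.42.0, limma-voom (limma 3.58.1), no filter, a filter of 1 CPM in 3 samples, a replicate block and leaving out each library.

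The members and lists were chosen with earlier results of these data known. Pathway lists are described by counts and medians with no set test. The listed gene Pnp was not matched. The text names all 9 members, from each list up to 3 other genes with the smallest p among those past the threshold and the most abundant one that did not pass, 2 genes nearest in pattern to each member past the threshold (mean of at least 5 CPM), and 2 markers per cell type, and it says where another gene is named. Of the genes this rule takes, 2 are not reported here.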

Additional observations from a re-analysis of the deposited data

Results flagged for a closer look

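Ada in FP replicate 4 stood apart from the other 3 FP libraries, with 9.48 CPM against 15.8 to 16.2 CPM. Its gap to the nearest library was 0.937 of the group's range, above Dixon's critical value at 95% for 4 samples. Without that library the log2 fold change of Ada was 1.19 (adjusted p = 0.000147 by edgeR).

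Prkar1b, a regulatory subunit of protein kinase A, was also low in FP replicate 4, with 4.78 CPM against 8.42 to 9.15 CPM in the other FP libraries. The summed B cell markers were high in FP replicate 2 at 40.4 CPM, and the summed platelet and megakaryocyte markers were high in FP replicate 1 at 5.37 CPM. These are 4 of 69 groups of values checked, and chance alone marks about 1 in 20.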

How the results depend on the processing

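Ada, Pde3b, Pde4d and Ptger2 kept their direction and stayed past the threshold in each of the 15 alternatives. Entpd1 missed it under upper-quartile scaling (log2 fold change 0.20) and library size alone (0.13), where Nt5e passed it as lower (-0.34 and -0.41), leaving 1 member higher under each. The sign of Adora2a turned with the same 2 scalings (-0.0296 and -0.0924) and that of Ptger4 with library size alone (-0.0261). With single libraries left out, Pde4b ran from -0.45 to -0.30 and missed the threshold without PBS replicate 1, and the count of members lower ran from 3 to 4.

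Over all genes, 2023 were higher with library size alone, and 5046 were lower. Upper-quartile factors gave 4823 lower. Of all calls, 53.2% were higher with TMM factors, 33.2% under upper-quartile scaling and 28.6% with library size alone. Genes lower ran from 1774 (without PBS replicate 3) to 3389 with single libraries left out, and were 1869 without PBS replicate 2. The cause was not tested.

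With library size alone the FP minus PBS difference in summed markers reached an adjusted p of 0.0490 in the exact permutation test for several lists. These were Treg (1503 CPM), B cell (-17.3), monocyte and macrophage (-1324), dendritic cell (-22.2), NK cell (-4.59), plasma cell (22.6) and stromal and endothelial (-57.9) lists. With TMM factors the Treg, monocyte and macrophage, dendritic cell, NK cell and plasma cell lists already had the smallest p of this test, 0.0286. Their adjusted p moved from 0.0686 because the B cell and stromal and endothelial lists also reached that smallest p. With library size alone the difference turned negative for T cell (-150) and CD8 T cell (-0.572) lists.

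Replicate numbers were not taken to pair the samples. After each gene's group mean was subtracted, the log2 CPM of same-number libraries correlated at 0.33, 0.019 and 0.132 over 10757 genes. Not every library correlated best with its own number. A fit with the replicate number as a block called 4122 genes higher and 3748 lower, and Ptger4 passed in it at 0.28 (adjusted p = 0.0316). Of the 114 pathway genes it called 30 higher and 41 lower, with 2 higher and 0 lower among the genes induced by cyclic AMP and 6 lower among the other Gs-coupled receptors.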
